A study of Mus musculus with 20 samples.

Results

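Naive bone marrow-derived macrophages (BMDM) exposed to exosomes of BMDM kept in normal glucose (BMDM–NG-exo) were compared with BMDM exposed to PBS, the vehicle. The BMDM came from male wild-type C57BL/6 mice and were differentiated with M-CSF. The donor BMDM had been kept for 24 h in 5.5 mM glucose with 19.5 mM mannitol, a sugar alcohol that matches the osmolarity of high glucose, and recipient cells received 2000000000 particles per ml for 24 h. Of the 20 libraries of long RNA listed, 4 were from BMDM exposed to BMDM–NG-exo and 4 from BMDM exposed to PBS, 1 of each on each of 4 dates given in the sample labels, and each exosome sample came from a separate preparation. Genes were included where the mean of the normalized counts reached 10 in these 8 libraries, which gave 14365 of the 14456 genes listed. The normalized count is the number of reads on a gene divided by 1 size factor per library. The dates are numbered 1 to 4 here, and they served to match the libraries. Whether samples came from the same animals is not given in the sources used here, so p-values measure the spread between these samples.

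Exosomes are small vesicles released from endosomes that carry RNA, protein and lipid, and macrophages both release them and take them up by endocytosis. Macrophages at rest keep a low tone of type I interferon signalling: interferon binds the receptor IFNAR, the kinases JAK1 and TYK2 phosphorylate STAT transcription factors, and these join IRF9 to bind the interferon-stimulated response element in antiviral genes. A separate route through NF-κB drives inflammatory cytokines, and its own targets include the inhibitors that switch it off.

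The PBS libraries held between 34016445 and 44693640 reads on listed genes and the BMDM–NG-exo libraries between 40751064 and 56310712. The BMDM–NG-exo library was the deeper one on dates 1 to 3, and the PBS library was the deeper one on date 4. All 16 macrophage markers were measured, and no member of the marker lists of T and NK cells, dendritic cells, erythroid cells or mast cells was among the genes tested. Of the neutrophil, B cell, fibroblast and endothelial lists, 5, 2, 5 and 1 members were tested and 0 were called in the limma fit, also at an unadjusted p under 0.05. The summed normalized count of the 5 neutrophil markers was between 208 and 298 with PBS and between 165 and 312 with BMDM–NG-exo. For the 5 fibroblast markers it was between 185 and 429 and between 240 and 332.

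After exposure to BMDM–NG-exo, antiviral genes were lower almost throughout, parts of the NF-κB, antigen presentation and complement lists were lower, and some mitotic genes were higher. The changes were mostly small. With the date as a block, 505 genes were called, 3.52% of the genes tested, of which 356 were lower (2.48%) and 149 were higher (1.04%). Calls required an adjusted p under 0.05 (Benjamini-Hochberg in limma, a linear model that shares the spread across genes) together with a log2 fold change of 0.15 or more in size. The median log2 fold change was -0.28 among the genes called lower and 0.24 among those called higher, and 66 and 15 genes reached a size of 0.5 on the log2 scale. Of the genes called, 490 moved the same way on all 4 dates and 429 had groups that did not overlap. Over all genes tested, 10.9% were lower and 10.4% were higher on all 4 dates, and 8.29% had groups that did not overlap. Protein-coding genes made up 483 of the 505. The calls rest on the trend of the variance with the mean level. Without it 0 genes passed (smallest adjusted p 0.241, Benjamini-Hochberg in limma) and 1492 had an unadjusted p under 0.05. On the recovered reads, edgeR and DESeq2 called 505 and 471. Both also draw the spread of each gene toward a trend with the level, so these counts cannot show what holds without it.

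**Figure D1:**
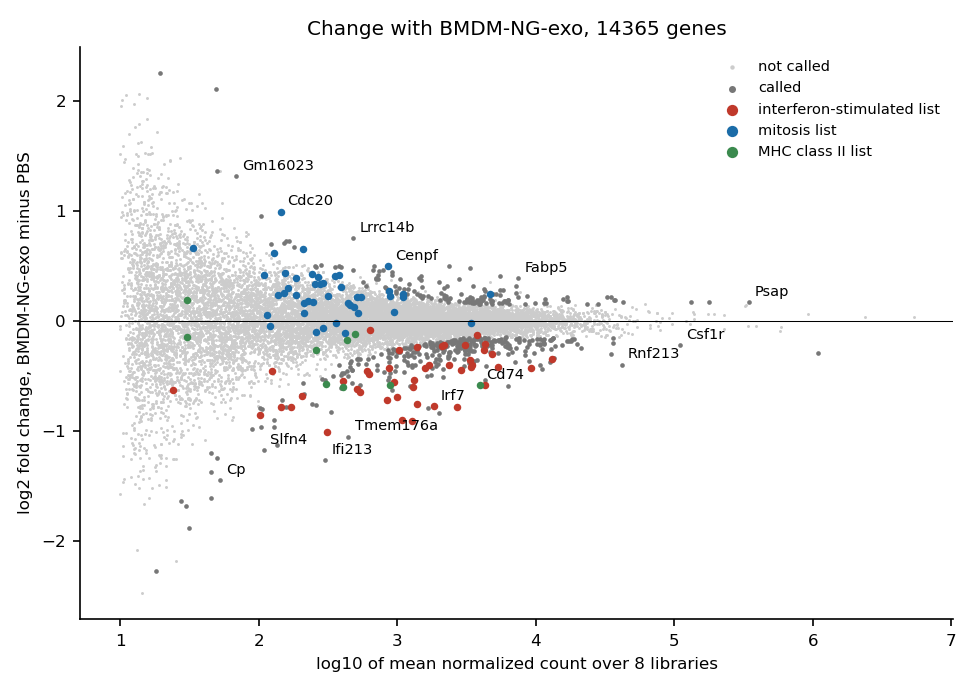
Log2 fold change (BMDM–NG-exo minus PBS, y axis) of each of 14365 genes against log10 of its mean normalized count over 8 libraries (x axis), with called genes in dark grey and 3 gene lists in colour. The interferon-stimulated list (red) lies below 0, the MHC class II list (green) mostly below and the mitosis list (blue) mostly above.

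Type I interferon-stimulated genes were lower with BMDM–NG-exo. Of 44 members tested, 40 were called lower and 0 higher, against 2.48% and 1.04% of all genes, and the median log2 fold change was -0.46, where the median of all genes tested was 0.00. On all 4 dates, 41 of the 44 were lower. The median within-date log2 difference of the list was -0.42, -0.40, -0.58 and -0.47 on dates 1 to 4. The members that were not called were Isg20, Ifi205, Psmb8 and Psmb9, at log2 fold changes of -0.46, -0.63, -0.13 and -0.09. The summed normalized count of the list was between 105720 and 112250 in the PBS libraries and between 78273 and 85934 in the BMDM–NG-exo libraries. In such bulk samples, fewer cells of a type and less RNA per cell cannot be told apart.

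**Figure D2:**
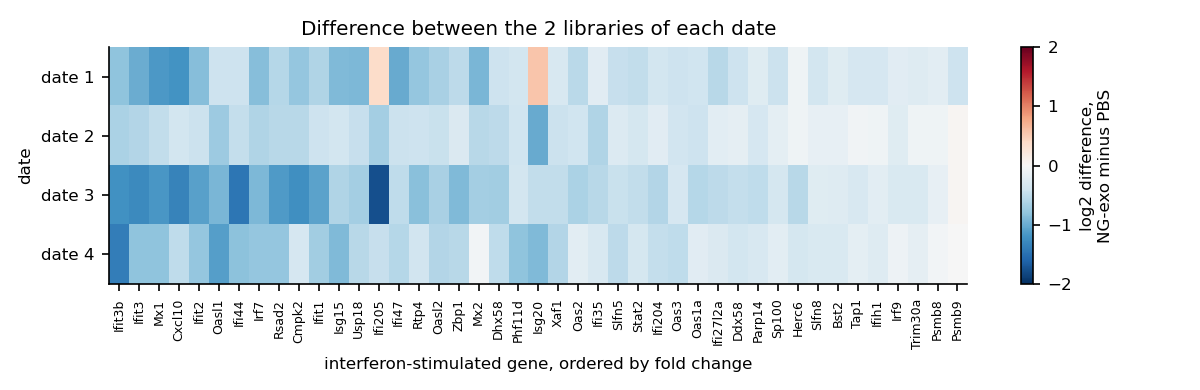
Log2 difference between the 2 libraries of each date (BMDM–NG-exo minus PBS, colour) for interferon-stimulated genes of the list (x axis) on dates 1 to 4 (y axis). Blue cells, lower with BMDM–NG-exo, fill the map apart from Ifi205 and Isg20 on date 1 and Psmb9 on dates 2 and 3.

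Irf7 (ENSMUSG00000025498, GRCm38 chr7:141262706-141266481, minus strand) encodes the transcription factor that amplifies interferon production. Its normalized count was 2448, 2314, 2174 and 2383 in the PBS libraries of dates 1 to 4 and 1362, 1529, 1171 and 1387 in the BMDM–NG-exo libraries. The groups did not overlap, and the log2 fold change was -0.78 (SE, its standard error, 0.0594, adjusted p = 1.53e-11, Benjamini-Hochberg in limma). Oasl2, an antiviral 2'-5'-oligoadenylate synthetase-like protein, had 5320.3, 5072, 4899 and 5233 with PBS and 3399.8, 3742, 3126 and 3475 with BMDM–NG-exo. All its BMDM–NG-exo libraries lay below all its PBS libraries, at a log2 fold change of -0.58 (SE 0.044). Ifit2, which belongs to a family of proteins that bind foreign RNA, fell from 3528, 3017, 3614 and 3566 to 1959, 2233, 1694 and 2082. Its PBS library of date 2 was the lowest of its group and still lay above all BMDM–NG-exo libraries (log2 fold change -0.79, SE 0.0632). Ifit3 had 1922, 1441, 1688 and 1670.3 with PBS and 968, 957, 699 and 952 with BMDM–NG-exo, and Mx1, a gene of an antiviral GTPase family, had 1583, 1264, 1526 and 1260.4 and 716, 899, 679 and 722. Both fell without overlap, by 0.92 and 0.90 on the log2 scale. Rnf213, a large ubiquitin ligase induced by interferon, had the smallest p of all genes and was named for that after its values were seen. It fell from 48283, 45244, 47316 and 49438 to 36143, 36499.6, 35097 and 36437 (log2 fold change -0.40, adjusted p = 5.81e-13, Benjamini-Hochberg in limma).

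The receptor and the kinases below it were looked at after the interferon values were seen. Ifnar1 and Ifnar2, the receptor chains, had log2 fold changes of -0.12 and -0.10 (adjusted p = 0.096 and 0.232, Benjamini-Hochberg in limma) and were not called. Ifnar1 was lower on all 4 dates, as were 10.9% of all genes tested. Its groups did not overlap, which held for 8.29% of all genes tested, whereas those of Ifnar2 overlapped. Jak1 had 14788, 14645, 15052 and 14709.8 with PBS and 15540.1, 15565, 14155 and 15154 with BMDM–NG-exo, and its groups overlapped. Tyk2 had a log2 fold change of -0.05, also with overlap. Stat2 and Irf9, which encode transcription factors of the pathway and are themselves targets, were called at -0.42 and -0.22 on the log2 scale. Irf9 overlaps Rnf31 on the same strand.

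Promoters are shown here because the response element is the sequence through which STAT2 and IRF9 act. RefSeq promoters of GRCm38.p6, from 250 bases before to 50 bases after each start, matched 9710 of the 14364 gene symbols tested. The letters TTTCNNTTTC, searched on both strands, occurred in 16 of the 33 matched interferon-stimulated genes (48.5%) and in 4.02% of all genes tested. They occurred in 21.1% of the genes called lower, in 17.4% of those outside the interferon list and in 3.88% of the genes called higher. The promoters below are those of the 4 called members with the smallest p, a single RefSeq start and a match before the start. Each is written 5′ to 3′ on the strand of the gene, and capitals mark the response element letters or their reverse complement.
Ifit3 (chr19:34583313-34583476, plus strand): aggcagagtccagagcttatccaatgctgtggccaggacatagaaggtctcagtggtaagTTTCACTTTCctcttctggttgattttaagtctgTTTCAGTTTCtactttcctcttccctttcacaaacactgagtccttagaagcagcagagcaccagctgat
Slfn5 (chr11:82951887-82952016, plus strand): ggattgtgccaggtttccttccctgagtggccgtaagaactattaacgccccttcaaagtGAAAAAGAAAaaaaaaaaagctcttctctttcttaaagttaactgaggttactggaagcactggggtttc
Rsad2 (chr12:26456503-26456632, minus strand): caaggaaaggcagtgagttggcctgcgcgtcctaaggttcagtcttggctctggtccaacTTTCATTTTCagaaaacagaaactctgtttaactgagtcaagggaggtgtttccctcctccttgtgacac
Stat2 (chr10:128270248-128270345, plus strand): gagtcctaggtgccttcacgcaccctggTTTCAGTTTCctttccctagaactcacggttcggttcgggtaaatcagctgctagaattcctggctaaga
Ifit3 held 2 matches, both within 150 bases of its start, and the others held 1 each. Slfn5, an antiviral Schlafen protein, had a log2 fold change of -0.43 and Rsad2, the antiviral enzyme viperin, one of -0.76. A match describes the letters and is no evidence of binding.

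Genes of interferon-linked families were frequent among the largest falls at a mean of 50 or more. Called genes with a lower mean were not ranked. The 12 called genes with the largest fall, where the mean was 50 or more, had log2 fold changes from -1.45 to -0.90, and 7 of them are interferon-induced genes or members of the Ifi, Ifit and Slfn families. Ifi213, a DNA sensor family member, had 379.9, 418, 507 and 403 with PBS and 146, 203, 180.0 and 177 with BMDM–NG-exo, which did not overlap (log2 fold change -1.27, SE 0.136). Slfn4, Ifit1bl1, Ifit3b and Ifi208 fell by 1.17, 1.13, 1.01 and 0.96 on the log2 scale. Ifi208 had 175, 126, 204 and 167 and 96.5, 140.0, 52.4 and 71.6, so that its BMDM–NG-exo library of date 2 overlapped the PBS group, and its adjusted p was 0.195 and 0.101 without date 3 or date 4 (Benjamini-Hochberg, limma). These genes lie in clusters of close copies, so reads may have been shared among neighbours. Tmem176a and Tmem176b, membrane proteins of antigen-presenting cells, had log2 fold changes of -1.05 and -0.84. They overlap each other on opposite strands, and the counting used strand. Tmem176b had 2649, 2535, 2439 and 2644 with PBS and 1459.5, 1635, 1219 and 1445 with BMDM–NG-exo.

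The largest fall at a mean of 50 or more was that of Cp, which encodes ceruloplasmin, the copper-carrying ferroxidase that lets iron leave cells. It had 63.3, 90.8, 64.7 and 87.3 with PBS and 17.5, 49.7, 21.97 and 27.8 with BMDM–NG-exo, a log2 fold change of -1.45 (SE 0.323, adjusted p = 0.0039, Benjamini-Hochberg in limma). Every BMDM–NG-exo library lay below every PBS library, but the counts were low. Hpn, which encodes the serine protease hepsin, had 133, 139.6, 159 and 116 with PBS and 65.4, 89.4, 95.5 and 40.6 with BMDM–NG-exo. Its call was lost without date 4, which held the lowest library (adjusted p 0.0697, Benjamini-Hochberg in limma). Gm48627 and 2700081O15Rik had log2 fold changes of -1.25 and -0.98. Gm48627 was not called without date 2 or 3 and 2700081O15Rik was not called without date 3 (adjusted p 0.093, 0.0658 and 0.0605, Benjamini-Hochberg in limma). Gm48627 also overlaps Zfp810 on the same strand.

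Part of the inflammatory and NF-κB genes was lower. Of 40 tested, 17 were called lower (42.5%, against 2.48% of all genes) and 0 higher. The median log2 fold change was -0.15, and 21 were lower on all 4 dates. The inhibitors and feedback genes of the pathway stood among them. Nfkbia, which encodes the inhibitor IκBα, had 3683, 3378, 3113 and 3516 with PBS and 2706, 2653, 2485 and 2884 with BMDM–NG-exo (log2 fold change -0.35). Nfkbiz, an inducible cofactor of NF-κB, fell from 2140.3, 1968, 1917 and 2157 to 1398, 1495, 1368 and 1532 (log2 fold change -0.50). The groups of neither gene overlapped. Marcksl1, an actin-binding substrate of protein kinase C, had 2105, 2072, 2052 and 2284 and 1299, 1232, 1037 and 1351 and changed most clearly of the list (log2 fold change -0.80, adjusted p = 1.81e-11, Benjamini-Hochberg in limma). The cytokine genes Il1b and Tnf were called lower at log2 fold changes of -0.90 and -0.47, and the subunit genes Nfkb2 and Relb at -0.35 and -0.31. Il1b had 149, 179, 198 and 142 normalized counts with PBS and 87.7, 106, 72.7 and 90.9 with BMDM–NG-exo. Il1b was not called without date 3, Tnf without date 1 or 2 and Relb without date 2 (adjusted p 0.0937, 0.12, 0.243 and 0.0551, Benjamini-Hochberg in limma). The subunits Rela and Rel were at -0.06 and 0.02 and the receptor gene Tlr4 at -0.04, none of which was called, whereas Tlr2 was called at -0.30. The 3 members of smallest p among those with a positive difference, Il1rn, Ptgs2 and Saa3, were not called (log2 fold changes 0.16, 0.50 and 0.31).

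The κB letters GGGNNNTTCC, searched on both strands, occurred in the promoters of 12 of the 29 matched members (41.4%) and of 7.45% of all genes tested. They occurred in 14.3% of the genes called lower and in 2.91% of those called higher. The genes called lower include called members of this list, and their share outside it was not computed. The 3 called members chosen by the same rule are shown with the κB letters in capitals, since the site is the one by which NF-κB acts on its own inhibitors.
Nfkbia (chr12:55492648-55492736, minus strand): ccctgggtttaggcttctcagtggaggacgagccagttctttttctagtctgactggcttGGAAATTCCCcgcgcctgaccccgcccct
Tlr2 (chr3:83841712-83841841, minus strand): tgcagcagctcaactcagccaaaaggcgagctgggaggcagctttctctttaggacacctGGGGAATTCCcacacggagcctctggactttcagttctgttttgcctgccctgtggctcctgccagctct
Nfkbie (chr17:45555534-45555663, plus strand): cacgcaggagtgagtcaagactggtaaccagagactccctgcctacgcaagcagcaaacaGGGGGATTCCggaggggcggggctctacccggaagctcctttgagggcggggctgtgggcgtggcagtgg
Nfkbie encodes another inhibitor of NF-κB and had a log2 fold change of -0.41. In Nfkbia, as in Slfn5, the capitals are the reverse complement of the letters searched.

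**Figure D3:**
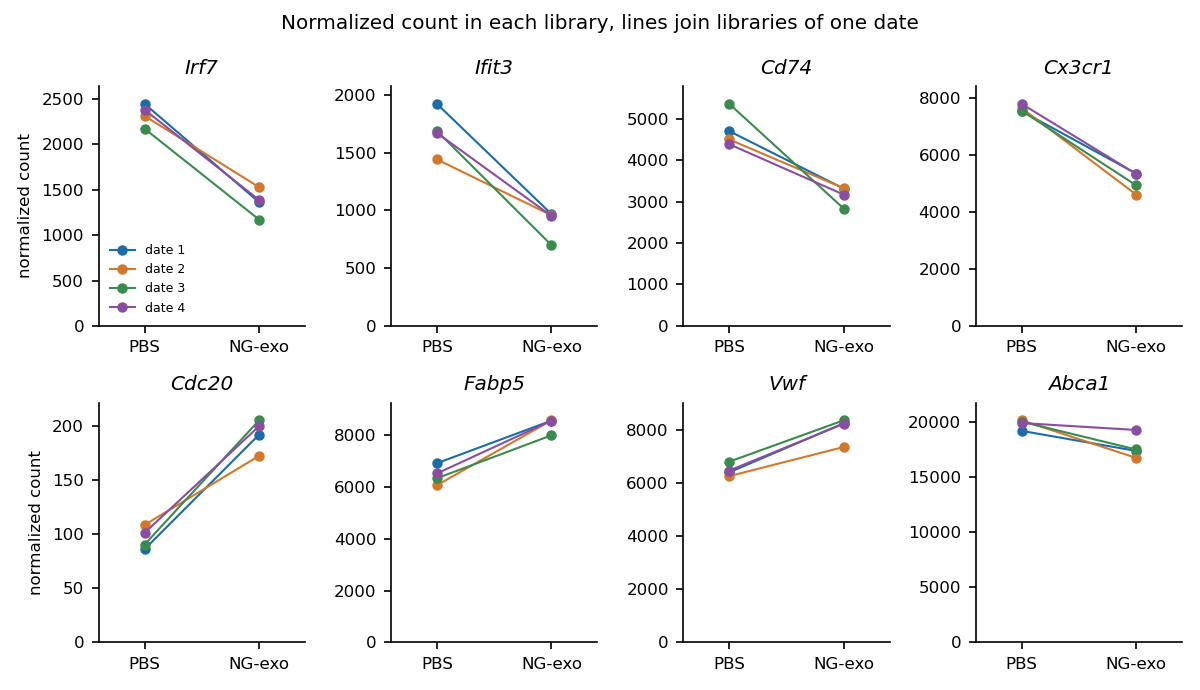
Normalized count (y axis, from 0) of 8 genes in the PBS and BMDM–NG-exo libraries (x axis), with a line joining the 2 libraries of each date. Irf7, Ifit3, Cd74 and Cx3cr1 fall and Cdc20, Fabp5 and Vwf rise on every date, while the Abca1 line of date 4 is the flattest of its panel.

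Chemokine receptors and chemokines gave a mixed picture. Of 19 tested, 5 were called lower (26.3%, against 2.48% of all genes) and 0 higher, and the median log2 fold change was -0.08. Cx3cr1, the fractalkine receptor of monocytes and resident macrophages, had 7525, 7633, 7539.7 and 7781 with PBS and 5336, 4599, 4925 and 5323 with BMDM–NG-exo. The groups did not overlap, and its p was the second smallest of all genes (log2 fold change -0.60, adjusted p = 8.78e-13, Benjamini-Hochberg in limma). The annotated span of Cx3cr1 overlaps other genes on the same strand. The receptor gene Ccr2 was called lower at -0.28, the chemokine Cxcl16 at -0.29 and the interferon-induced Cxcl10 at -0.85 on the log2 scale. Cxcl10 was not called without date 1 or 3 (adjusted p 0.133 and 0.215, Benjamini-Hochberg in limma). Ccl3 and Ccl4, which attract macrophages and T cells, were higher in value and not called (log2 fold changes 0.24 and 0.30, adjusted p = 0.091 and 0.139, Benjamini-Hochberg in limma). The groups of Ccl3 did not overlap, at 724, 760.0, 699 and 675 with PBS and 899, 868, 799 and 815 with BMDM–NG-exo.

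Called MHC class II genes, which present antigen to T cells, included the activator of the group. Of 9 tested, 4 were called lower (44.4%, against 2.48% of all genes) and 0 higher (median log2 fold change -0.27). Cd74, the invariant chain that guides class II molecules, had 4701, 4499, 5359.8 and 4384 with PBS and 3312, 3321, 2829 and 3167 with BMDM–NG-exo (log2 fold change -0.58, adjusted p = 1.63e-09, Benjamini-Hochberg in limma). H2-Ab1, a class II chain, fell from 1064, 1017, 1154 and 1000.4 to 799.5, 786, 510.4 and 763 without overlap, and H2-Aa had a log2 fold change of -0.57. Ciita, the master activator of the class II promoters, had 361, 503, 679 and 449.6 and 343, 309.7, 292 and 339. The within-date median of the list ran from -0.94 on date 3 to -0.004 on date 4. Without date 2 or without date 3, 2 of the 4 calls were left, and H2-Aa then had an adjusted p of 0.0567 or 0.295 and Ciita one of 0.0574 or 0.139 (Benjamini-Hochberg, limma). Of 18 MHC class I genes tested, 4 were called lower (22.2%, against 2.48% of all genes) and 0 higher, with a median of -0.13. H2-T23 and the class I activator Nlrc5 were called at -0.23 and -0.21. The abundant class I genes H2-K1 and H2-D1 were not called, H2-K1 at -0.14 with an adjusted p of 0.00035 just short of the fold limit and H2-D1 at 0.03 (Benjamini-Hochberg, limma).

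Among 20 complement and Fc receptor genes, 5 were called lower and 1 higher, and the median log2 fold change was -0.09. These were 25% and 5% of the list, against 2.48% and 1.04% of all genes. C3, the central complement protein, had 5324, 4932, 4566 and 5504 with PBS and 3507, 4241, 2867 and 3435 with BMDM–NG-exo, and C1qa, a chain of the first complement component, had 10544, 9724, 9908 and 9977 and 7631, 7903, 7373 and 8241. Neither gene overlapped between the groups (log2 fold changes -0.54 and -0.37). C1qb was called at -0.31, though its date 4 library with BMDM–NG-exo overlapped the PBS group. The activating receptor gene Fcgr1 was called lower at -0.41, whereas the inhibitory receptor gene Fcgr2b was called higher at 0.25 and lost the call without date 4 (adjusted p 0.083, Benjamini-Hochberg in limma).

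Macrophage markers were among the genes that changed. Of the 16, 8 were called lower and 1 higher, with a median log2 fold change of -0.15. These were 50% and 6.25% of the list, against 2.48% and 1.04% of all genes. C1qa, C1qb and Fcgr1 are also in the complement and Fc receptor list and Itgam in the matrix and adhesion list, so these counts overlap. Csf1r, the M-CSF receptor that macrophages need to survive, had 123454, 116603, 112876 and 121018 with PBS and 105139, 98773, 95859.6 and 106269 with BMDM–NG-exo. Each BMDM–NG-exo library lay below each PBS library (log2 fold change -0.22, SE 0.0213, adjusted p = 2.52e-09, Benjamini-Hochberg in limma). Cd14, a coreceptor for bacterial lipopolysaccharide, and Adgre1, which encodes F4/80, were called at -0.31 and -0.16. Without date 1 or 3, Adgre1 was under the fold limit (-0.12 and -0.14). Cd68 and Mertk were not called (0.10 and 0.09). Mrc1, the mannose receptor, was called higher at 0.15, but not without the date block or without date 2 (adjusted p 0.0984 and 0.169, Benjamini-Hochberg in limma). The list of regulators of hematopoiesis shares Csf1r and had 5 of 31 called lower and 0 higher (3 lower without date 2). The 5 were 16.1% of the list, against 2.48% of all genes. They included Csf2ra, a receptor chain for GM-CSF, at -0.22.

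Some genes of mitosis were higher with BMDM–NG-exo. Of 44 tested, 7 were called higher (15.9%, against 1.04% of all genes) and 0 lower, and the median log2 fold change was 0.23. On all 4 dates, 22 were higher (50%, against 10.4% of all genes) and 0 lower. Cdc20 (ENSMUSG00000006398, GRCm38 chr4:118432901-118437352, minus strand), which activates the ligase that starts anaphase, had 86.1, 109, 90.4 and 101.2 with PBS and 192, 172, 205 and 199.9 with BMDM–NG-exo. The groups did not overlap (log2 fold change 0.99, SE 0.19, adjusted p = 0.000654, Benjamini-Hochberg in limma). Cenpf, a kinetochore protein, rose from 681, 708, 745 and 719.5 to 912, 1203, 1045 and 900.3, and Mki67, the proliferation marker Ki-67, from 4236, 4385, 4153 and 4217 to 5048, 5573, 4762 and 4741 (log2 fold changes 0.50 and 0.24). Cdca3, Kif20a, Prc1 and Kif23 were the other members called, at 0.65, 0.42, 0.41 and 0.27. The spindle checkpoint adaptor gene Spdl1 was outside the list and was called at 0.50. Without date 2, 3 members of the list were called, and without date 3 or without the date block 4. Mki67, Cdc20 and Cenpf were called without each date, and the other 4 had an adjusted p between 0.159 and 0.301 without date 2 (Benjamini-Hochberg in limma). Of 42 genes of DNA replication tested, 0 were called by limma in either direction, 1 had an unadjusted p under 0.05, and the median log2 fold change was -0.02. The medians of the mitosis list on dates 1 to 4 were 0.21, 0.33, 0.26 and 0.17, and those of the replication list were 0.03, 0.08, 0.02 and -0.10.

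The cell cycle genes homology region, through which mitotic genes are silenced in resting cells, has the core letters TTTGAA. On both strands of the RefSeq promoters, they occurred in 30 of 38 matched mitosis genes (78.9%), in 20.0% of the 35 matched replication genes and in 14.6% of all genes tested. Among the genes called, they occurred in 22.3% of those called higher and in 18.5% of those called lower. The genes called higher include called members of the mitosis list, and their share outside it was not computed. The 2 called members that met the rule are shown with these letters in capitals.
Mki67 (chr7:135716412-135716555, minus strand): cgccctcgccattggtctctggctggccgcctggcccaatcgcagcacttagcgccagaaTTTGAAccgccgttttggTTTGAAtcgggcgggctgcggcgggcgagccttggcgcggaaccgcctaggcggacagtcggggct
Cdc20 (chr4:118437344-118437421, minus strand): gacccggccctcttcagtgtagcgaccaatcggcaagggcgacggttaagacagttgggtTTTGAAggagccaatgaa
The match of Cdc20 lay 12 bases before its RefSeq start, and Mki67 held 2 matches in tandem.

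**Figure D4:**
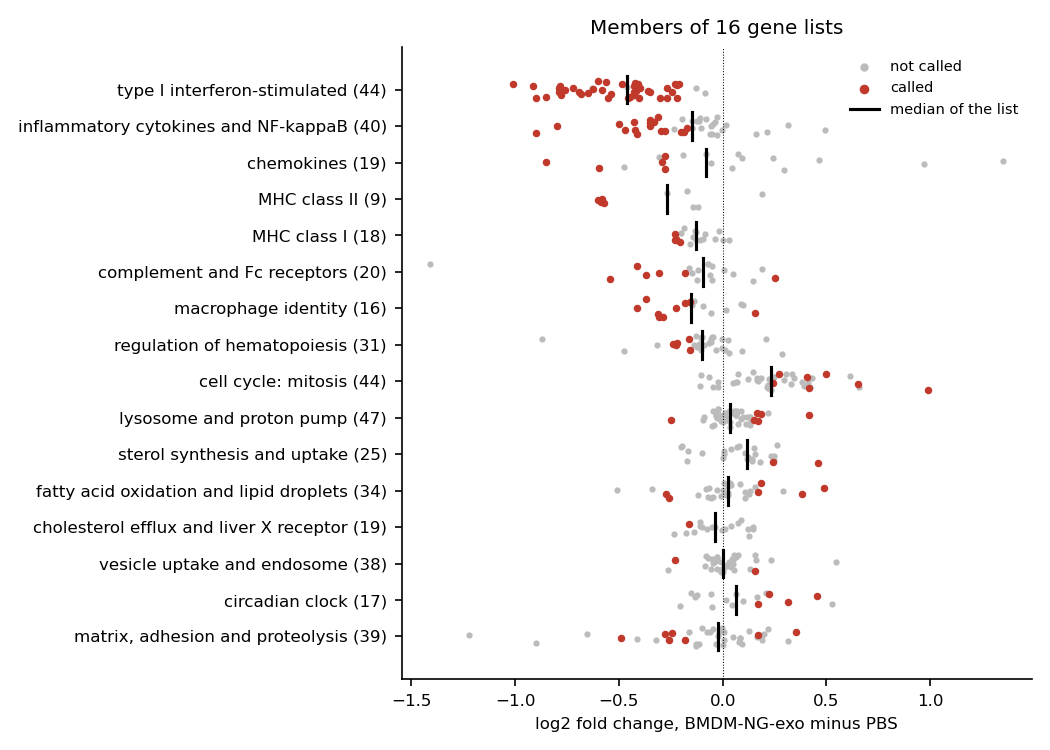
Log2 fold change (x axis, BMDM–NG-exo minus PBS) of each tested member of 16 gene lists (y axis, number tested in parentheses), called members in red, others in grey and the median as a black bar. Red points lie mostly to the left in the immune lists, apart from Fcgr2b and Mrc1, and mostly to the right in the mitosis, lysosome and clock lists.

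A few lysosomal and lipid-handling genes rose by small amounts. Of 47 lysosomal and proton pump genes, 5 were called higher and 1 lower (median log2 fold change 0.04). These were 10.6% and 2.13% of the list, against 1.04% and 2.48% of all genes. Psap, the precursor of the saposins that help degrade sphingolipids, had 328580.1, 327010.1, 314949 and 324583 with PBS and 368779.7, 363686, 366696 and 358589 with BMDM–NG-exo. Ctsd, the aspartic protease cathepsin D, had 128505, 123787, 121255 and 121449 and 134826, 139327, 141065 and 140021. The groups of both were apart, at log2 fold changes of 0.17 and 0.17, close to the fold limit, and under quantile normalization these were 0.07 and 0.13 and no longer called. Without date 3 Ctsd was at 0.15, just under the limit. Ctsc, which activates granule proteases, was called lower at -0.25. Among 34 genes of fatty acid oxidation and lipid droplets, 4 were called higher and 2 lower (11.8% and 5.88%, against 1.04% and 2.48% of all genes). In all, 2 and 3 were called without date 3 and without date 2. Fabp5, a fatty acid binding protein, rose from 6916, 6065, 6337 and 6521 to 8562, 8576, 7996 and 8563 without overlap (log2 fold change 0.38, adjusted p = 3.9e-09, Benjamini-Hochberg in limma). Fabp4 was called at 0.49, Acadl and Plin3 at 0.19 and 0.17, and the peroxisomal thiolase gene Acaa1a was called lower at -0.27. Fabp4, Acadl and Plin3 were not called without date 3 (adjusted p 0.0507, 0.124 and 0.283, Benjamini-Hochberg in limma), nor were Fabp4 and Plin3 without date 2 (0.0678 and 0.134). The other gene called lower was Lipe, a lipase, at -0.26, which was called in 1 of the 4 fits that left out a date. Its adjusted p was 0.319, 0.203 and 0.0851 without date 2, 3 or 4 and 0.0709 without the date block (Benjamini-Hochberg in limma), and 0.0592 in edgeR and 0.0609 in DESeq2. The lipid droplet coat gene Plin2 had an adjusted p of 0.00564 (Benjamini-Hochberg, limma) at 0.11, under the fold limit.

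Abca1 (ENSMUSG00000015243, GRCm38 chr4:53030787-53159895, minus strand), the transporter that exports cholesterol, was named by the study as lower after exosomes of BMDM kept in high glucose. The study's sequencing comparison pooled PBS and BMDM–NG-exo as controls, and Abca1 was also measured by qRT-PCR. Here Abca1 had 19159, 20117, 19995 and 19867 with PBS and 17344, 16711, 17471 and 19239 with BMDM–NG-exo. The date 4 library with BMDM–NG-exo overlapped the PBS group, and the log2 fold change was -0.16 (SE 0.0312, adjusted p = 0.000615, Benjamini-Hochberg in limma). Without date 2 it was -0.13, under the fold limit. Abca1 was the 1 gene called of 19 in the list of cholesterol efflux (3 without date 4), or 5.26%, against 3.52% of all genes. Soat1, which esterifies cholesterol, was at 0.15 and not called. Bcl2, the apoptosis inhibitor, was named by the study as higher after the high-glucose exosomes. Here Bcl2 had 187, 184, 241 and 181 with PBS and 239.9, 224, 303 and 226 with BMDM–NG-exo. It was higher on each date but was not called (log2 fold change 0.32, SE 0.148, adjusted p = 0.288, Benjamini-Hochberg in limma).

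Genes of vesicle uptake and endosomes moved little as a group. Of 38 tested, 1 was called higher and 1 lower, and the median log2 fold change was 0.00. The higher one was Eea1, an early endosome tether, at 0.16, which fell under the fold limit without date 1, 2 or 3 (0.14, 0.14 and 0.14). The lower one was Axl, a receptor that binds the phosphatidylserine of vesicles and dying cells through a bridging protein. Axl had 6968, 6637, 6471 and 6728 with PBS and 5794, 5453, 5480.4 and 6183 with BMDM–NG-exo. Each of its BMDM–NG-exo libraries lay below each PBS library (log2 fold change -0.23). Of 38 tetraspanin and exosome sorting genes, 1 was called lower and 0 higher, the tetraspanin gene Cd37 at -0.16. It was not called without date 2, 3 or 4 (adjusted p 0.0594, 0.272 and 0.117, Benjamini-Hochberg in limma). Of 31 glycolysis genes, the sugar transporter gene Slc2a6 was called lower at -0.36 and 0 were called higher. Of 72 nuclear genes of oxidative phosphorylation, Atp5l was called lower at -0.25, but not without date 1, 2 or 4 (adjusted p 0.247, 0.0678 and 0.247, Benjamini-Hochberg in limma), and 0 were called higher. The shares called lower in the tetraspanin, glycolysis and oxidative phosphorylation lists were 2.63%, 3.23% and 1.39%, against 2.48% of all genes. In the vesicle uptake list, 2.63% were called higher and 2.63% lower, against 1.04% and 2.48% of all genes. Among 26 genes of the tricarboxylic acid cycle, 0 were called by limma in either direction, with 3 at an unadjusted p under 0.05.

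Clock and adhesion genes held further calls. Of 17 clock genes, 4 were called higher (23.5%, against 1.04% of all genes) and 0 lower. Bhlhe40, a repressor of the clock and of Il10, had 748, 678, 548 and 522 with PBS and 878, 818, 953 and 752 with BMDM–NG-exo (log2 fold change 0.46), and Dbp, Nr1d2 and Bhlhe41 had log2 fold changes of 0.32, 0.22 and 0.17. Bhlhe40 alone was called without date 2, where the adjusted p of the others was between 0.062 and 0.147 (Benjamini-Hochberg, limma). Without date 3 or 4, Bhlhe41 and Nr1d2 were not called either (0.302 and 0.0581, 0.122 and 0.243). Among 39 genes of matrix, adhesion and proteolysis, 5 were called lower and 2 higher, and 4 in all without date 1. The 5 and 2 were 12.8% and 5.13% of the list, against 2.48% and 1.04% of all genes. The integrin chain Itgal, its ligand Icam1, Itgam, Itgb7 and the membrane protease Mmp14 were lower, at log2 fold changes between -0.49 and -0.18. Mmp14 was not called without date 1 or 3 (adjusted p 0.105 and 0.0524) and Itgb7 not without date 2 or 3 (0.0557 and 0.194, Benjamini-Hochberg in limma). The macrophage elastase gene Mmp12 was called higher, from 1817, 1631, 1975 and 1645 to 2281, 2314, 2346 and 2075, and Gpnmb, a glycoprotein of lipid-laden macrophages, at 0.17, which was 0.11 and not called under quantile normalization and 0.15, just under the limit, without date 1. Vwf, known as the von Willebrand factor of endothelium and platelets, was named for its small p after its values were seen. It had 6390.4, 6247, 6791 and 6457 with PBS and 8237, 7343, 8347 and 8218 with BMDM–NG-exo (log2 fold change 0.31), and the endothelial list had 1 member tested, which was not called.

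The 12 largest rises among called genes, where the mean was 50 or more, had log2 fold changes between 0.50 and 1.31. Lrrc14b, which encodes a leucine-rich repeat protein, was the clearest, with 395, 336, 374 and 325 with PBS and 633, 601, 589.9 and 581 with BMDM–NG-exo and no overlap (adjusted p = 3.88e-06, Benjamini-Hochberg in limma). The long noncoding gene Gm14461 and the transcriptional regulator gene Tox2 had log2 fold changes of 0.96 and 0.73, and Cdca3 had one of 0.65. These 3 were not called without date 2 (adjusted p 0.0542, 0.179 and 0.183, Benjamini-Hochberg in limma). Gm16023 had 8.87, 77.5, 56.2 and 39.7 with PBS, where date 1 was lowest, and 78.9, 87.6, 85.4 and 111 with BMDM–NG-exo. It was not called without date 1 or 4 (0.237 and 0.116) or without the block (0.0758, adjusted p, Benjamini-Hochberg in limma), and it overlaps Gm10563 on the same strand. Gm47087, Cbfa2t3, the receptor gene Gprc5b and C030034L19Rik had log2 fold changes between 0.67 and 0.72. Gm47087 was not called without date 2 or 3 (adjusted p 0.142 and 0.0579), nor Cbfa2t3 (0.0571, 0.0711 and 0.202) or C030034L19Rik (0.111, 0.149 and 0.0634) without date 1, 3 or 4, and Gprc5b was not called without any of them (0.0681 to 0.19, Benjamini-Hochberg in limma). Rnu11, the U11 small nuclear RNA of the minor spliceosome, had a date 1 library with BMDM–NG-exo at 486, above the others (486, 295, 265 and 289.8), and its log2 fold change of 0.50 was 0.31 without that date (adjusted p 0.431, Benjamini-Hochberg in limma). It was not called without date 2 or 3 either (0.0551 and 0.154), nor without the block (0.124) or in DESeq2 (0.0829).

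Whether a change depended on the medium of the donor cells was tested for the named genes, in 1 fit of 12 libraries with the date block. The comparison was with BMDM exposed to exosomes of BMDM kept in 25 mM glucose without mannitol (BMDM–HG-exo, 4 libraries of the same dates). Glucose and mannitol differed together between the donor media, so their parts cannot be told apart. BMDM–HG-exo and BMDM–NG-exo differed in 22 genes, 0.153% of those tested, and in 2 without the date block. Of the 24 genes with the largest changes and the 44 interferon-stimulated genes, 0 were called in this test. The interferon list had a median log2 fold change of -0.50 for BMDM–HG-exo against PBS and of -0.05 for BMDM–HG-exo against BMDM–NG-exo, and the mitosis list had 0.24 and -0.02. The comparisons with PBS share the PBS libraries. Irf7 had 1169, 1037, 1402 and 1469.9 with BMDM–HG-exo, and these overlapped its BMDM–NG-exo values (log2 difference -0.11, adjusted p = 0.84, Benjamini-Hochberg in limma). Cd74 and Cdc20 had log2 differences of -0.19 and -0.21 between the 2 kinds of exosome (adjusted p = 0.281 and 0.893, Benjamini-Hochberg in limma). Abca1 and Bcl2 had differences of -0.09 and 0.32 and were not called (adjusted p = 0.337 and 0.598, Benjamini-Hochberg in limma). For BMDM–HG-exo against PBS they were at -0.26 and 0.64 (adjusted p = 1.78e-07 and 0.00257, Benjamini-Hochberg in limma).

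Slco4a1 (ENSMUSG00000038963, GRCm38 chr2:180456245-180474867, plus strand), an organic anion transporter, had the smallest p of the genes called both against PBS and between the exosomes and was named after its values were seen. It had 1748, 1314, 1286 and 1554 with PBS, 1365, 856, 816 and 921 with BMDM–NG-exo and 1899, 1367, 1188 and 1441 with BMDM–HG-exo on dates 1 to 4. BMDM–NG-exo was the lowest of the 3 groups on each date, while BMDM–HG-exo was above PBS on dates 1 and 2 and below it on dates 3 and 4. The date 1 library with BMDM–NG-exo overlapped the PBS group. The log2 fold change was -0.60 for BMDM–NG-exo and -0.01 for BMDM–HG-exo against PBS, and 0.58 between the 2 kinds of exosome (SE 0.0664, adjusted p = 2.35e-06, Benjamini-Hochberg in limma). Date 1 was high in all 3 groups, and without the date block the difference between the exosomes was not called (adjusted p = 0.0545, Benjamini-Hochberg in limma). Slc6a12, a transporter of betaine and GABA, and Hpn had the same order of group means without passing, with log2 differences of 0.61 and 0.92 between the exosomes (adjusted p = 0.119 and 0.112, Benjamini-Hochberg in limma). The comparison with PBS and that between the exosomes share the BMDM–NG-exo libraries, so low values there enter both. Slc6a12 too was named after its values were seen. Slc6a12 had 268, 289, 296 and 352 with PBS and 237, 157, 145 and 184 with BMDM–NG-exo (log2 fold change -0.75).

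Fos and Itgam differed the other way and were lowest with BMDM–HG-exo. Fos, an immediate early transcription factor, had 2186, 2566, 2276 and 2053 with PBS, 1916, 2079.7, 1972 and 1729 with BMDM–NG-exo and 1487, 1448, 1316 and 1815 with BMDM–HG-exo. It fell by 0.24 on the log2 scale with BMDM–NG-exo and lay lower again with BMDM–HG-exo, and its groups overlapped at each step, the date 4 library with BMDM–HG-exo being the highest of its group (log2 difference -0.35, adjusted p = 0.0331, Benjamini-Hochberg in limma). The first step was not called without date 2 (adjusted p 0.0617, Benjamini-Hochberg in limma). Itgam, which encodes CD11b, had 9703, 9099.8, 9689 and 9428, 7668, 8931, 8382 and 8533 and 6611, 7301, 7628 and 7678 in the same order of groups, with BMDM–NG-exo wholly below PBS and in slight overlap with BMDM–HG-exo (log2 difference between exosomes -0.20, adjusted p = 0.0234, Benjamini-Hochberg in limma). Without the date block the difference between the exosomes was called for neither Fos nor Itgam (0.0893 and 0.117). Its log2 fold change with BMDM–NG-exo was -0.18, and -0.13 without date 1 (adjusted p 0.0661, Benjamini-Hochberg in limma). Adgre4, Entpd1 and Kcnq1ot1 were the other genes called both against PBS and between the exosomes, at log2 fold changes against PBS of -0.53, 0.25 and 0.24 and log2 differences between the exosomes of -0.72, -0.17 and 0.30. Without the date block none of these 3 was called between the exosomes (adjusted p 0.0953, 0.176 and 0.288, Benjamini-Hochberg in limma). Kcnq1ot1 overlapped between its PBS and BMDM–NG-exo groups and was not called against PBS without the block (0.108). Adgre4 was called against PBS only when date 1 was the one left out (adjusted p 0.0611, 0.231 and 0.101 without date 2, 3 or 4, Benjamini-Hochberg in limma).

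**Figure D5:**
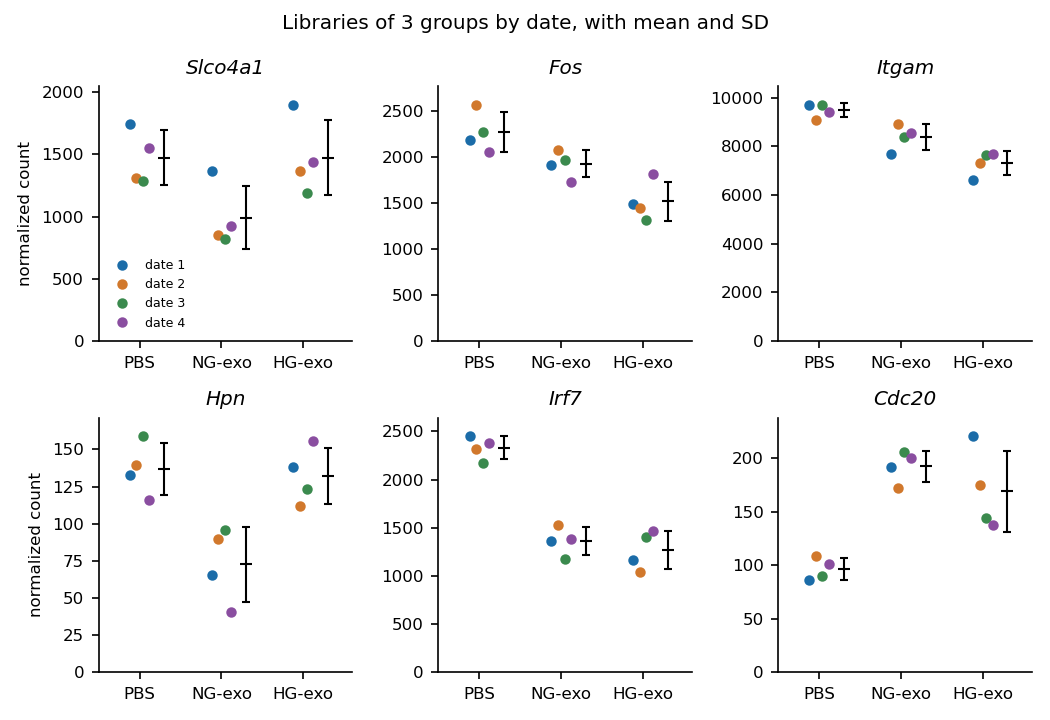
Normalized count (y axis, from 0) of 6 genes in each library of the PBS, normal-glucose and high-glucose exosome groups (x axis), coloured by date, with the mean and SD of each group in black (n = 4). Slco4a1 and Hpn are lowest with BMDM–NG-exo, Fos and Itgam step down from group to group in their means, and Irf7 and Cdc20 overlap between the 2 kinds of exosome.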

How the data were processed

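Total RNA of the recipient BMDM was sequenced with a stranded kit, trimmed, aligned to GRCm38 with STAR and counted with featureCounts, per the labels and the methods of the study. The deposited values are counts that the authors divided by DESeq2 size factors, a signal in the unit of reads, and whole reads could be recovered from them. The annotation used for counting is not given in the sources used here, and GENCODE coordinates on GRCm38 were used.

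Values were analysed as log2(normalized count + 1) in limma 3.58.1 (R 4.3.3) with the trend of the variance and the date as a block, and fold changes on this scale understate those of low genes. The study's methods name no block. The dates in the sample labels pair the libraries, although deviations from the group means correlated at only -0.022 to 0.059 (mean 0.0207) within 4 same-date pairs and at -0.0069 on average in 12 other pairs. Genes with a mean of at least 10 were tested, and those at an adjusted p under 0.05 (Benjamini-Hochberg) with a log2 fold change of 0.15 or more in size were called. All libraries of a group differed by more than sampling noise. The fit was also run on simulated counts with a date effect built into each gene. Such counts cannot show whether the block or the variance trend suits these libraries.

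Named genes were the 12 largest called changes each way with a mean of at least 50, Bcl2 and Abca1, which the study names in these cells, and up to 3 per list and direction of smallest p. Other genes named were chosen after their values were seen, and the gene lists and members were chosen with earlier results of these data known. Alternatives were edgeR 4.0.16 and DESeq2 1.42.0 on recovered reads, other scaling, filters and pseudocounts, no block, no trend and leaving out each date. Depth limits genes of low count most, where the standard error was largest. Results of some genes are not reported here, and list counts include them.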

Additional observations from a re-analysis of the deposited data

Results flagged for a closer look

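Among 244 gene and group combinations of 4 libraries, 11 had a library set apart from the other 3 by Dixon's test, and chance sets 1 in 20 apart. With BMDM–NG-exo, the highest library stood apart for Rnu11 at a normalized count of 486, for Saa3 at 138 and for Meis1 at 279. The lowest BMDM–NG-exo library stood apart for Ifit3 at 699, H2-Ab1 at 510.4, H2-T23 at 3777, Fabp5 at 7996 and Vwf at 7343. With PBS, the highest library stood apart for Bcl2 at 241, and the lowest for Ifit2 at 3017 and for Lipe at 918.

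In the test between the 2 kinds of exosome, 6 genes called against PBS were also called, among them Slco4a1, Fos and Itgam. The log2 fold change of BMDM–HG-exo against BMDM–NG-exo was 0.58 for Slco4a1, -0.35 for Fos and -0.20 for Itgam.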

How the results depend on the processing

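The call of 505 genes moved by more than 1.5 times under 2 settings: without the variance trend it was 0 in limma (1492 at an unadjusted p under 0.05), and at an unadjusted p under 0.05 with the fold limit it was 1381, of which 640 were higher and 741 lower. Without the replicate block it was 429, all of them among the 505. Leaving out each date in turn gave between 354 and 478, and 233 genes were called in all 4 of these. The other settings gave between 433 and 606, and DESeq2 and edgeR without the block gave 535 and 429. The count between the 2 kinds of exosome was 22 and fell to 2 without the replicate block. Over 122 named genes and 18 alternatives, 2194 comparisons held 2031 with the same direction and side of the threshold, 152 that lost the call, 8 that gained it and 3 that changed sign. The last were values of H2-Ob, which ran from -0.1061 to 0.4238 without each date in turn against 0.19, and H2-M3, from -0.0474 to 0.06 against 0.00. Neither was called. Leaving out the block ended the calls of Gm16023, Mrc1, Lipe, Gprc5b, C030034L19Rik, Rnu11 and Bhlhe41. Of 96 list medians, 2 moved by more than the SD of the within-date medians, both of the matrix list (from -0.02 to 0.0166 and 0.0029 without date 1 or 3). That of MHC class II, whose dates differed most widely among the lists described, was -0.1338 without date 3 and -0.5326 without date 4.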

Other observations

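Further genes of metabolism and iron handling were called, with small differences. Of 22 genes of fatty acid synthesis, 2 were called higher (9.09%, against 1.04% of all genes) and 0 lower. Gpam and Lpin1, which act in triglyceride synthesis, were called higher at log2 fold changes of 0.35 and 0.37. Gpam was not called without date 1, 2 or 4 (adjusted p 0.191, 0.0943 and 0.0914, Benjamini-Hochberg in limma). Atp6v0d2, a proton pump subunit, was called higher at 0.42. Of 23 genes of iron and heme, the iron exporter gene Slc40a1 was called higher at 0.20 (4.35%, against 1.04% of all genes). The iron importer gene Slc11a2 and Cp were called lower at -0.32 and -1.45 (8.70%, against 2.48% of all genes). Slc11a2 was not called without date 2 (adjusted p 0.0859, Benjamini-Hochberg in limma). These genes were chosen after their values were seen.

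Among 147 small nuclear and nucleolar RNAs, 2 were called higher (1.36%, against 1.04% of all genes) and 0 lower, the spliceosomal Rnu11 and the nucleolar Gm25835. The median within-date log2 difference was 0.50, -0.08, 0.22 and -0.10 on dates 1 to 4. The count of 2 was 0 without date 1, 1 without date 2 or 3 and 11 without date 4, and 0 without the date block (23 at an unadjusted p under 0.05 with it) and in DESeq2. Of 81 cytosolic ribosomal protein genes, Rpl31 was called higher at 0.19 (1.23% of the list, against 1.04% of all genes) and 0 were called lower. Rpl31 was not called without date 1 or 2 (adjusted p 0.327 and 0.0594, Benjamini-Hochberg in limma), without the block (0.0596) or in DESeq2 (0.397), and the list had 4 calls without date 4. Of 21 heat shock and 62 histone genes, 0 were called by limma in either direction, and 3 of each had an unadjusted p under 0.05.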
